A study of Mus musculus with 8 samples.

Results

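The sites described here are stretches of the mouse genome that the authors listed as common Foxp3 binding sites and that lie between genes. A common site was kept when its centre fell outside every protein-coding gene body of RefSeq (assembly GRCm38.p6, the same build as mm10) and more than 1 kb from either end of every protein-coding gene. This holds for 976 of 3847 common sites (25.4%), while 2226 (57.9%) lie inside a gene body and 645 (16.8%) within 1 kb of a gene end. The series lists 5521 sites in all. Among the sites listed as specific to one Treg state, the share between genes was 42.0% for cTreg (305 of 727) and 41.7% for eTreg (395 of 947).

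Foxp3 is a forkhead transcription factor that defines regulatory T (Treg) cells, the CD4+ T cells that hold immune responses in check. It binds DNA together with partners such as Runx1, Ets1 and NFAT, largely at enhancers that were open before Foxp3 was expressed. Enhancers often lie between genes, far from the start of the gene they act on, so a nearest gene is a label of position and not a target. R397W is a missense change in the forkhead domain, the part of Foxp3 that contacts DNA.

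The assay was CUT&Tag, in which an antibody directs a transposase to chromatin and the DNA cut nearby is sequenced for Foxp3 occupancy. Treg cells (CD4+hCD2+GFP-) of C57BL6/J mice were sorted fresh from the spleen and lymph nodes. The WT group had the genotype Foxp3WT-IRES-hCD2/Foxp3-IRES-GFP and the R397W group Foxp3R397W-IRES-hCD2/Foxp3-IRES-GFP. Both groups are heterozygous, so each also carries a GFP-tagged Foxp3 allele. The sort for hCD2 without GFP took the cells that express the hCD2-tagged allele, in mice whose GFP+ Treg cells with unaltered Foxp3 are still present. Each genotype had 2 libraries made with a rabbit antibody to Foxp3 and 2 with normal rabbit IgG as background, 8 libraries in 4 groups. The labels do not say whether libraries 1 and 2 of a group came from separate mice, so the spread behind each p-value is that of the samples and may be technical.

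The libraries were unevenly covered at these sites, by number more than by group. Values are normalised read counts, that is whole reads times 1 factor per library. The sites held 58784 and 73166 reads in WT Foxp3 (libraries 1 and 2 throughout), 22777 and 47084 in R397W Foxp3, 56322 and 41505 for WT IgG, and 21612 and 40034 for R397W IgG. Yet 98.8% and 61.1% of the 976 sites had any read in WT Foxp3, 88.9% and 45.3% in R397W Foxp3, 79.3% and 33.6% for WT IgG, and 85.6% and 41.7% for R397W IgG. In each group library 2 reached fewer sites, with more reads per site it reached. The factors equal median-of-ratios size factors of the 815 common sites with reads in all 8 libraries, of which 50.2% lie at gene ends and 15.5% between genes, so levels here are relative to a set made up mostly of other sites.

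Each site spans 400 bp. The distance from a site's centre to the nearest protein-coding gene end had a median of 24814 bp, with quartiles of 8121 and 66331 bp and a range from 1019 to 902156 bp. The members nearest to the 1 kb limit lie 1019 bp from Secisbp2l and 1039 bp from Hes1, and the nearest excluded sites lie 985 bp from Gm8369 and 962 bp from Tnfrsf26. At the member near Secisbp2l the value was 18.2 and 0 in WT Foxp3 and 7.93 and 344 in WT IgG, and at the excluded site near Gm8369 it was 59.4 and 1.86 in WT Foxp3 and 13.9 and 0 in WT IgG.

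Being outside coding genes did not mean being outside transcripts. Of the 976 sites, 238 (24.4%) overlap a long noncoding RNA (lncRNA) gene and 723 (74.1%) overlap no noncoding gene. Other annotations were rare, among them 5 sites in the antigen receptor loci Igh, Tcra and Tcrb. A lncRNA start window, from 250 bases before to 50 after a start, overlaps 35 sites, and 15 of those hold a whole window. These windows are the sites for which sequence was read. The 4 with the highest WT Foxp3 mean are shown 5′ to 3′ on the strand of the lncRNA (RefSeq, GRCm38.p6), with matches to the searched motifs in capitals.

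Gm41331, chr15:60141576-60141875, + strand: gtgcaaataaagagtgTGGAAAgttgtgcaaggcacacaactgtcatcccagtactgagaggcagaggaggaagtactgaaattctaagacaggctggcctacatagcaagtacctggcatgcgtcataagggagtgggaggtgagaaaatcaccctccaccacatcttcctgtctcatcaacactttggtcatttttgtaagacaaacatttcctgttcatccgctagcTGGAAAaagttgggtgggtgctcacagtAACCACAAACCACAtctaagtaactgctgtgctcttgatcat
Gm31871, chr9:32594246-32594545, + strand: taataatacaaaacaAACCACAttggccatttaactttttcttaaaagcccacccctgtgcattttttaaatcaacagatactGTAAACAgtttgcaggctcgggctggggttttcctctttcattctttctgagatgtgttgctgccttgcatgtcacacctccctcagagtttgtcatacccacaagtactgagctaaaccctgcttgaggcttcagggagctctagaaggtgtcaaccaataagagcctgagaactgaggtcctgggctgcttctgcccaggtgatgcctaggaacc
Gm15411, chr5:149015831-149016130, - strand: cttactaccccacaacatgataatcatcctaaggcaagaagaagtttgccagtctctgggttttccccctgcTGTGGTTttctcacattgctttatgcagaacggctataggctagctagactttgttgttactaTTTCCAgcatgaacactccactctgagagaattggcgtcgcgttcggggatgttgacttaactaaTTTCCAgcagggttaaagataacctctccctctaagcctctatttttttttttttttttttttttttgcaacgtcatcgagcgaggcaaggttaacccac
Gm46298, chr11:108910910-108911209, - strand: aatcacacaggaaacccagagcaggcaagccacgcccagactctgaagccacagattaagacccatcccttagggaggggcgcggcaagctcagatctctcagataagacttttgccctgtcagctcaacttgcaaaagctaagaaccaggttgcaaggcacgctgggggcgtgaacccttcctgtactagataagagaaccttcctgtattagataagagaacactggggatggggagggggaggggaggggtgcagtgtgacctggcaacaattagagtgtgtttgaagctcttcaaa

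The Gm41331 window carries 2 matches to the RUNX motif side by side, written AACCACAAACCACA on this strand, and 2 matches to the NFAT motif. The Gm31871 window, 41800 bp from Ets1, carries 1 RUNX match and 1 forkhead match. The Gm15411 window carries 1 RUNX match and 2 NFAT matches, and the Gm46298 window, 6718 bp from the Wnt pathway scaffold gene Axin2, carries none of the motifs searched. The site with Gm41331 had 312 and 64.3 in WT Foxp3, 173 and 0 in R397W Foxp3, 42.3 and 95.5 for WT IgG, and 77.0 and 0 for R397W IgG. The site with Gm31871 had 193 and 94.5 in WT Foxp3, 144 and 1.29 in R397W Foxp3, 139 and 0 for WT IgG, and 63.4 and 0 for R397W IgG. At both, the Foxp3 and IgG libraries of each genotype overlap.

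RUNX matches were frequent in these windows. The RUNX motif TGTGGTT occurred in 11 of 33 windows with at least 150 bases inside a site (33.3%), against 6.29% of 11587 lncRNA start windows and 5.27% of all 32817 start windows. The 33 windows belong to 30 sites, since some lncRNAs have neighbouring starts that share sequence, and 9 of those 30 sites had a RUNX match. The T3G repeat TTTGTTTG, a tandem form that forkhead proteins can bind, was in 5 windows (15.2%, against 3.44% of lncRNA windows). The forkhead motif TGTTTAC was in 3 (9.09%, against 4.83%), AP-1 TGAGTCA in 4 (12.1%, against 6.21%) and ETS CAGGAAGT in 3 (9.09%, against 3.50%). NFAT TGGAAA was in 11 (33.3%, against 25.3%) and TCF/LEF CTTTGAA in 2 (6.06%, against 6.23%). The SP/KLF motif GGGCGGGG, common at promoters of coding genes, was in 1 window (3.03%, against 6.60% of lncRNA and 17.6% of all windows), and the CTCF core was in none. Both strands were searched, and motifs that share letters were counted each on its own. The median GC content of the 33 windows was 46.3%, against 48.3% for lncRNA windows and 56.3% for coding ones. A match is a run of letters and not a bound site, and the windows are a small and particular subset of the 976 sites.

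**Figure D1:**
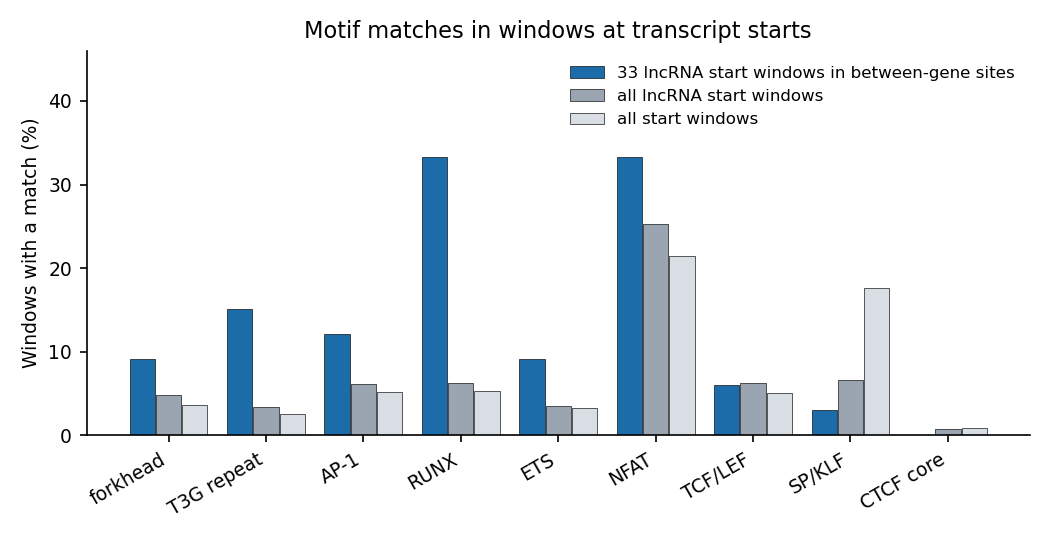
Share of start windows with at least 1 match to each motif, for the 33 windows with 150 or more bases inside a between-gene site, all lncRNA start windows and all start windows. The RUNX bar stands at 33.3% in the between-gene sites and at 6.29% in all lncRNA windows. Among the SP/KLF bars that of the between-gene sites is lowest, at 3.03%, and the CTCF core had no match in the between-gene windows.

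Small RNA genes lie near a few sites. The site chr11:75173538-75173938, 2205 bp from Ovca2, covers the hairpin of Mir132 and lies 60 bp from Mir212. The mature 3p strands of this pair share a seed, shown in capitals (bases 2 to 8), so they are expected to recognise much the same targets. The other sites within 5 kb of a miRNA hairpin lie 245 bp from Mirlet7i, 796 bp from the hairpin of miR-12196 and 4718 bp from Mir21a, whose product is abundant in activated T cells. The sequences of the main strands are given with U as in the RNA.

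mmu-miR-132-3p: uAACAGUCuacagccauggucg
mmu-miR-212-3p: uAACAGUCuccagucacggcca
mmu-let-7i-5p: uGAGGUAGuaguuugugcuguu
mmu-miR-21a-5p: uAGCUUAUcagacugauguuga

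The Mir132 site showed more IgG than Foxp3 signal. Its values were 129 and 215 in WT Foxp3, 176 and 226 in R397W Foxp3, 324 and 467 for WT IgG, and 177 and 412 for R397W IgG. Both WT IgG libraries lie above both WT Foxp3 libraries, and in R397W the antibodies overlap. At the site near Mir21a the values were 97.0 and 16.3 in WT Foxp3, 152 and 59.3 in R397W Foxp3, 97.8 and 70.7 for WT IgG, and 129 and 0.636 for R397W IgG, so no group stood apart.

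IgG libraries give the background, and Foxp3 signal at these sites was set against them. The mean value over the 976 sites in WT cells was 73.0 and 34.9 for anti-Foxp3, against 38.1 and 21.2 for IgG. In R397W cells it was 61.3 and 31.1 for anti-Foxp3, against 50.1 and 26.1 for IgG. The Foxp3 to IgG ratio between libraries of one number was therefore 1.92 and 1.65 in WT (1.78 ± 0.188, SD, n = 2) and 1.22 and 1.19 in R397W (1.21 ± 0.0224, SD, n = 2). Foxp3 exceeded IgG in each of the 4 pairings of equal number, and both WT ratios lie above both R397W ratios. The pairing by number is not established, and without it the antibodies overlap. WT Foxp3 library 2 (34.9) lay below WT IgG library 1 (38.1), and R397W Foxp3 library 2 (31.1) below R397W IgG library 1 (50.1). At gene ends the ratios were 0.935 and 0.872 in WT and 0.982 and 0.981 in R397W, and inside gene bodies 1.84 and 1.47 and 1.15 and 1.08. Gene-end sites are 50.2% of those that set the factors, so ratios there are drawn towards 1 by the scaling itself.

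The WT ratio was lowest close to genes and highest far from them. At the 159 sites 1 to 5 kb from a gene end it was 1.54 and 1.28, at the 276 sites from 5 to 20 kb 1.82 and 1.88, at the 364 sites from 20 to 100 kb 2.13 and 1.59, and at the 177 sites beyond 100 kb 2.16 and 2.13. The lowest and the highest distance class do not overlap between libraries, and the classes from 5 to 20 kb and from 20 to 100 kb do. The WT IgG means were 46.9 and 35.2 at 1 to 5 kb and 30.1 and 13.0 beyond 100 kb, while the WT Foxp3 means were 72.2 and 45.0 at 1 to 5 kb and 64.8 and 27.7 beyond 100 kb. In R397W the ratios stayed between 1.13 and 1.30 in every distance class, without an order (1.21 and 1.13, 1.16 and 1.30, 1.27 and 1.15, and 1.25 and 1.16 from near to far). Few sites carry these means. In WT IgG library 2 the 10 highest sites held 58.1% of the signal at 1 to 5 kb and 51.3% beyond 100 kb, and the median was 0 in both classes. In WT IgG library 1 the 10 highest held 31.7% and 27.8%. Across numbers, WT Foxp3 library 2 lay below WT IgG library 1, at 45.0 against 46.9 at 1 to 5 kb and 27.7 against 30.1 beyond 100 kb. These are values only, and the difference between distance classes was not tested.

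**Figure D2:**
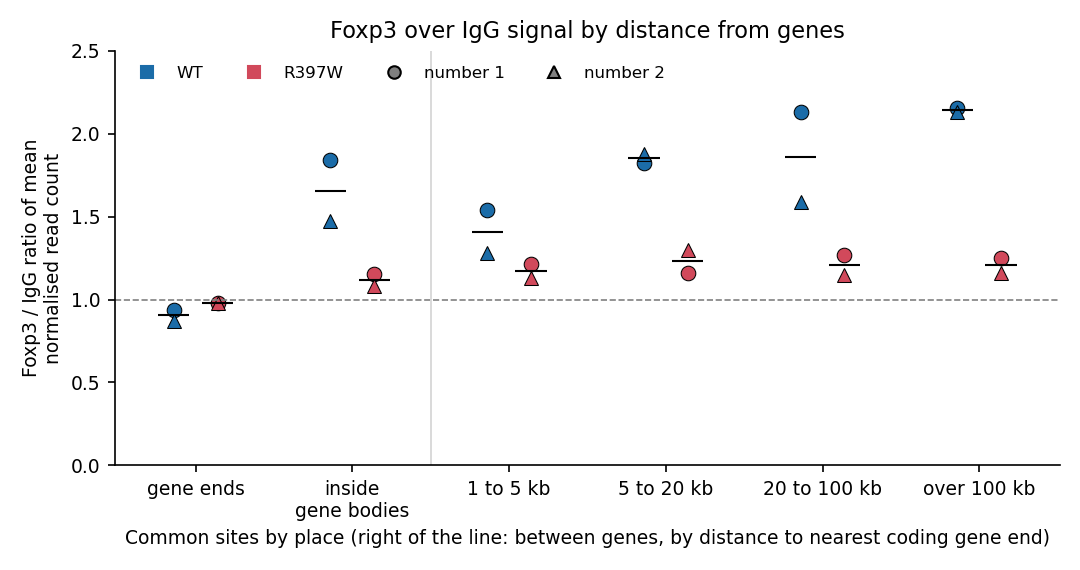
Ratio of the mean normalised read count with anti-Foxp3 to that with IgG (vertical axis), for common sites at gene ends, inside gene bodies and between genes by distance to the nearest protein-coding gene end (horizontal axis), with circles for libraries numbered 1, triangles for those numbered 2 and a bar at their mean. WT ratios (blue) go from 1.54 and 1.28 at 1 to 5 kb to 2.16 and 2.13 beyond 100 kb, while R397W ratios (red) stay between 1.13 and 1.30. Gene ends lie just below 1, where the scaling, set largely by gene-end sites, draws them. Few sites carry these means: the 10 highest held 58.1% of WT IgG library 2 signal at 1 to 5 kb.

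Sites inside lncRNA genes also had higher ratios in WT than in R397W. At the 223 sites inside a lncRNA gene but away from its start window the ratio was 2.11 and 1.98 for WT, against 1.14 and 1.11 for R397W. At the 35 sites that overlap a start window it was 1.47 and 1.54 for WT, against 1.20 and 0.891 for R397W, and at the 718 sites in no lncRNA gene 1.90 and 1.57 for WT, with 1.25 and 1.25 for R397W. The start windows had both more Foxp3 signal (91.5 and 72.9 in WT) and more IgG signal (62.4 and 47.3 in WT) than the sites in no lncRNA gene (71.8 and 32.2 with anti-Foxp3, 37.9 and 20.5 with IgG). Where the strand of the nearest coding gene was matched, 452 sites lie upstream of it and 304 downstream, with WT ratios of 2.02 and 1.51 upstream and 1.68 and 1.59 downstream, which overlap.

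The share of a library's common-site signal that fell between genes does not depend on the library's factor. It was 29.5% and 23.3% in WT Foxp3, 27.6% and 21.0% in R397W Foxp3, 24.1% and 17.1% for WT IgG, and 25.4% and 18.7% for R397W IgG. Over all libraries it was 25.3% ± 3.88 with anti-Foxp3 and 21.3% ± 4.04 with IgG (SD, n = 4 each). The difference of 4.03 percentage points did not pass (exact permutation test, two-sided, p = 0.200, Benjamini-Hochberg adjusted 0.286 over 5 such comparisons). The smallest p possible in that test is 0.0286. The share was lower in every library numbered 2 than in the library numbered 1 of its group, which widens the spread. Between libraries of one number the share with anti-Foxp3 was higher by 5.39 and 6.20 points in WT and by 2.23 and 2.31 points in R397W. Permuting the antibody within each number, a comparison added after the data were seen, gave an exact p of 0.0556, the smallest that design allows. With no margin around genes, so that sites just outside a gene end count as between genes, the difference was -0.12 points (exact permutation p = 0.800). A 5 kb margin gave 3.84 points (exact permutation p = 0.229). The direction thus rests on setting gene-end sites apart and not on the choice of 1 kb.

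The higher share between genes stood beside a lower share at gene ends. The gene-end share with anti-Foxp3 differed from that with IgG by -8.31 points on average (-13.1 and -13.6 in WT, -3.40 and -3.16 in R397W), and the share inside gene bodies was higher by 4.27 points. Against sites inside gene bodies alone, the log2 ratio of between-gene to inside-gene signal was higher with anti-Foxp3 by 0.11 (exact permutation p = 0.0857, adjusted 0.286), by 0.06 and 0.17 in WT and by 0.09 and 0.14 in R397W. On this scale WT and R397W had the same mean difference, 0.11. Against gene ends the log2 difference was 1.04 and 0.92 for WT, against 0.32 and 0.28 for R397W. For the between-gene share the genotypes differed by -3.53 points in the Foxp3 over IgG difference, and both R397W values lie below both WT values (exact permutation p = 0.333, the smallest that 2 against 2 allows). Between the Foxp3 libraries alone the share differed by -2.06 points, R397W minus WT (exact permutation p = 0.667), a direction that turned without R397W Foxp3 library 2 (1.23 points) and without WT Foxp3 library 1 (1.04 points).

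**Figure D3:**
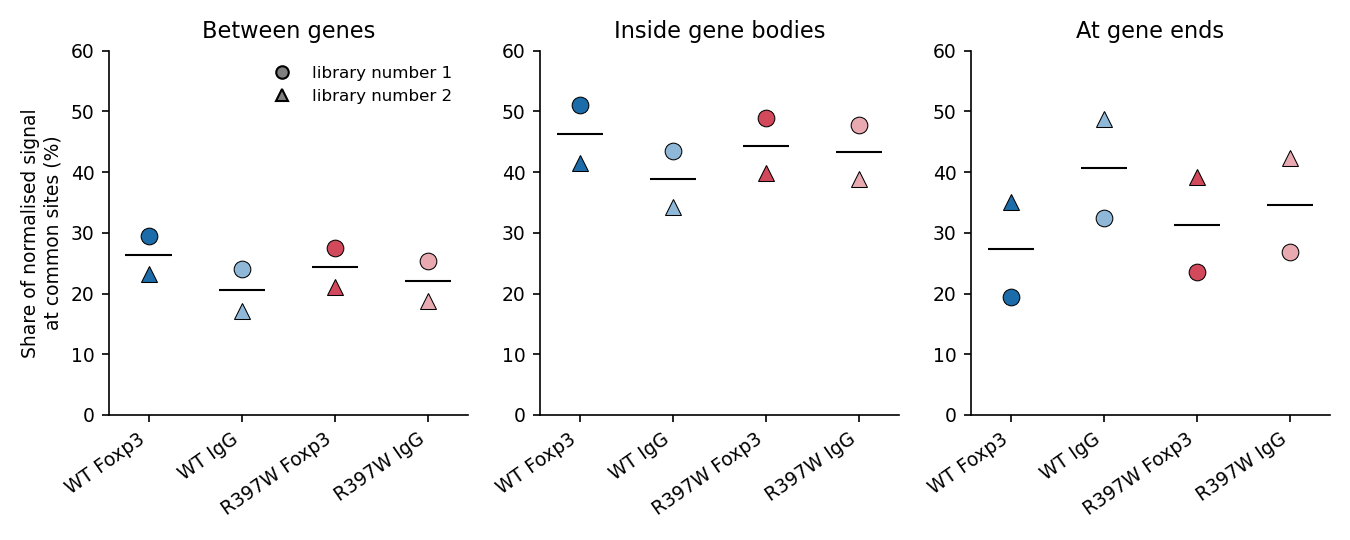
Share of the normalised signal at all 3847 common sites that falls between genes, inside gene bodies and at gene ends (vertical axes, %), per library, with circles for libraries numbered 1, triangles for number 2 and a bar at each group's mean. Among libraries of one number the between-gene share with anti-Foxp3 exceeds that of IgG in both genotypes (29.5% against 24.1% and 23.3% against 17.1% in WT), and the gene-end share is lower.

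Site by site, Foxp3 libraries often lay above IgG in WT, and few differences passed a test. Both WT Foxp3 libraries lay above both WT IgG libraries at 238 of the 976 sites (24.4%), against 19.5% of all 5521 sites, and below them at 20 (2.05%), against 4.84%. In R397W both Foxp3 libraries lay above both IgG libraries at 139 sites (14.2%), against 10.4% of all, and below at 77 (7.89%), against 7.84%. Both held in 34 sites (3.48%), against 2.35%. Compared by number, Foxp3 exceeded IgG at 794 sites and fell short at 177 in the WT libraries numbered 1, and at 483 and 184 in those numbered 2. In R397W the counts were 545 and 388 for number 1 and 329 and 268 for number 2, the rest having no reads in either. These counts by number were not made over all sites.

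The median log2 difference of Foxp3 over IgG was 1.62 in WT, against 1.27 over all sites, and 0.21 in R397W, against 0.05. It was 0 in WT without WT Foxp3 library 1 and 0.22 without WT IgG library 2, and in R397W it ranged from -1.23 to 1.76 with each library left out, so these medians rest on single libraries. Scaling the libraries to equal totals moved the WT median of all sites from 1.27 to 0.95 and that of the between-gene sites to 1.36. Over the 126 sites with reads in all 8 libraries (12.9% of the 976, against 63.4% of sites at gene ends) the median was 0.51 in WT and 0.28 in R397W.

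By limma over all 8 libraries, with Benjamini-Hochberg adjustment over all 5521 sites, 3 between-gene sites were higher with anti-Foxp3 in WT, where 0.0725% of all sites were called, and none in R397W (0% of all sites). At unadjusted p under 0.05, 38 sites were higher and 1 lower in WT (3.89% higher, against 2.41% of all sites), and 11 higher and 6 lower in R397W (1.74% in either direction, against 1.47% of all sites). On recovered reads, edgeR and DESeq2 called 0 between-gene sites in either genotype, with 13 (edgeR) and 50 (DESeq2) at unadjusted p under 0.05 in WT and 8 and 25 in R397W. In WT these are 1.33% and 5.12% of the between-gene sites, against 1.04% and 3.35% of the 3847 common sites. In R397W they are 0.82% and 2.56%, against 0.39% and 1.33%. The 3 called sites lie near Ramp3, Pnrc2 and Glrp1. Each call ended under 6 of the other settings and with any library but WT IgG library 1 left out. Near Pnrc2, a coregulator of nuclear receptors, and Glrp1 the value in WT IgG library 2 was 0.498, which is 1 read, while WT IgG library 1 had 324 and 234. With WT IgG library 2 left out the log2 difference near Pnrc2 was -0.01 in place of 3.87.

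The highest WT Foxp3 mean of the 976 sites was at chr11:6695101-6695501, inside the lncRNA gene Gm39575, 17823 bp downstream of Ramp3, a partner subunit of the calcitonin-like receptor. Its values were 849 and 1093 in WT Foxp3, 814 and 908 in R397W Foxp3, 831 and 269 for WT IgG, and 686 and 640 for R397W IgG. Both Foxp3 libraries exceeded both IgG libraries in each genotype, by a log2 difference of 1.03 ± 0.195 (SE) in WT (limma, adjusted p = 0.000754) and 0.38 ± 0.195 in R397W, and its IgG value was the highest of the 976 sites in 3 of the 4 IgG libraries. Each SE given here is that of limma, which draws the spread of a site towards a trend over all sites. It is therefore not the spread of the WT IgG libraries shown. Fitted without the trend, the WT difference had an unadjusted p of 0.527 (limma). In WT the difference was 0.21 without WT IgG library 2.

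Strong Foxp3 signal and strong IgG signal went together at several of the 10 highest sites. In 6 of them both WT IgG libraries were above 100. Ranking by WT Foxp3 mean favours sites where WT Foxp3 lies above the other groups, so such differences at these 10 sites are partly chosen. Upstream of Lmtk3, a membrane-bound kinase gene, the values were 366 and 585 in WT Foxp3, 273 and 282 in R397W Foxp3, 336 and 288 for WT IgG, and 294 and 233 for R397W IgG. Both WT Foxp3 libraries are above the other 6 there, which lie close together. The site 53346 bp upstream of Pim1, a survival kinase induced by cytokines, had 263 and 568 in WT Foxp3, 197 and 387 in R397W Foxp3, 188 and 388 for WT IgG, and 235 and 139 for R397W IgG, and antibodies overlap within each genotype, as do the genotypes.

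Upstream of Stim2, an endoplasmic reticulum calcium sensor used in T cell activation, the values were 278 and 424 in WT Foxp3, 199.5 and 85.7 in R397W Foxp3, 287 and 312 for WT IgG, and 186 and 256 for R397W IgG. There the R397W Foxp3 libraries lie below the WT Foxp3 libraries, while WT Foxp3 and WT IgG overlap. The site 19291 bp upstream of Eif2ak3, the kinase PERK of the unfolded protein response, had 597 and 62.9 in WT Foxp3, 570 and 320 in R397W Foxp3, 152 and 171 for WT IgG, and 210 and 27.4 for R397W IgG. R397W Foxp3 lies above R397W IgG at this site, by a log2 difference of 2.47 ± 0.677 (SE) that did not pass (unadjusted p = 0.00027, limma), and the WT Foxp3 libraries lie on either side of both WT IgG libraries.

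Near Cryaa, a lens crystallin gene next to the kinase gene Sik1, the values were 286 and 544 in WT Foxp3, 199.5 and 137 in R397W Foxp3, 266 and 27.9 for WT IgG, and 197 and 137 for R397W IgG. Near Zfp395 they were 277 and 530 in WT Foxp3, 347 and 187 in R397W Foxp3, 295 and 124 for WT IgG, and 337 and 388 for R397W IgG. WT Foxp3 lies above WT IgG near Cryaa and overlaps it near Zfp395, and R397W Foxp3 lies close to or below R397W IgG at both. The site upstream of Rgs16, a regulator of G-protein signalling induced in activated T cells, had 292 and 318 in WT Foxp3, 142 and 19.3 in R397W Foxp3, 168 and 0 for WT IgG, and 115 and 214 for R397W IgG, so WT Foxp3 was above the other 6 libraries.

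**Figure D4:**
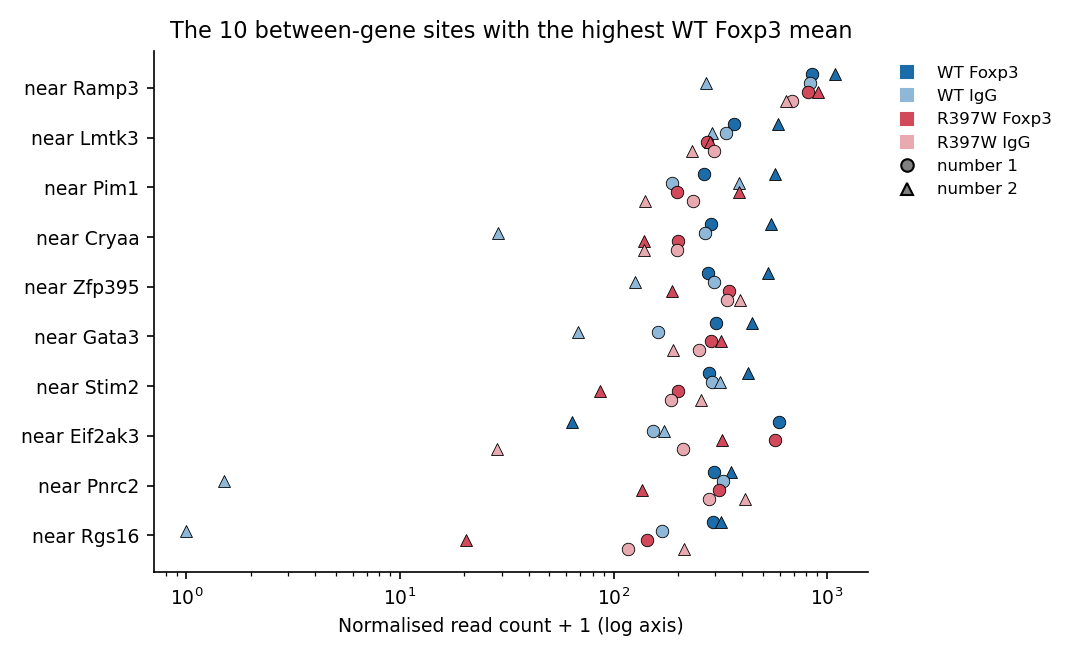
Normalised read count plus 1 (log axis) in each library at the 10 between-gene sites with the highest WT Foxp3 mean, named by nearest protein-coding gene. The site near Ramp3 is highest, with 849 and 1093 in WT Foxp3, and its IgG libraries (light points) also lie far above those of most sites, at 269 to 831.

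Among Treg genes, the strongest between-gene site belonged to Gata3, a transcription factor that effector Treg cells use in tissues. It lies at chr2:9593982-9594382, 262896 bp from the gene towards Celf2, and had 299.6 and 446 in WT Foxp3, 284 and 318 in R397W Foxp3, 161 and 67.2 for WT IgG, and 249 and 188 for R397W IgG. Both Foxp3 libraries were above both IgG libraries in each genotype. The log2 difference was 1.80 ± 0.560 (SE) in WT and 0.47 ± 0.560 in R397W, and neither passed (adjusted p = 0.483 in WT, limma). The other 4 sites nearest to Gata3 were weak, and the one at 107076 bp was higher in R397W, with 39.4 and 43.2 against 15.8 and 0.466 in WT.

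Of 16 core Treg genes, 5 were nearest to a between-gene site (Ctla4, Ikzf2, Izumo1r, Lrrc32 and Nrp1), with 9 sites in all. Of 22 effector Treg genes 7 were (14 sites), and of 15 naive and resting T cell genes 7 (11 sites). None of the sites nearest to these genes was called. Most sites described from these lists were taken by WT Foxp3 mean, which likewise favours WT Foxp3 over the other groups. The site 32731 bp from Lrrc32, which encodes GARP, the receptor that holds latent TGF-beta on Treg cells, had 98.2 and 124 in WT Foxp3, 181 and 43.8 in R397W Foxp3, 31.7 and 0 for WT IgG, and 72.4 and 0 for R397W IgG. WT Foxp3 lies above WT IgG there and the R397W antibodies overlap. The site 4227 bp upstream of Izumo1r, the folate receptor 4 gene, had 204 and 50.8 in WT Foxp3, 165 and 315 in R397W Foxp3, 91.2 and 70.2 for WT IgG, and 186 and 16.5 for R397W IgG, with overlap in every comparison.

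Near Ctla4, the inhibitory receptor that lowers costimulation, 3 sites lie between it and Cd28. The one 1390 bp upstream of Ctla4 had 95.8 and 40.04 in WT Foxp3, 84.0 and 13.5 in R397W Foxp3, 0 and 46.3 for WT IgG, and 74.7 and 0 for R397W IgG. The one 26026 bp away had reads in R397W Foxp3 (47.3 and 72.8) and in WT Foxp3 library 1 (10.9), and 0 in WT Foxp3 library 2 and in every IgG library. The site 4776 bp from Ikzf2, the Helios gene, had 76.4 and 31.2 in WT Foxp3, 18.4 and 0 in R397W Foxp3, 9.25 and 0 for WT IgG, and 40.7 and 0 for R397W IgG, so WT Foxp3 was above both WT IgG and R397W Foxp3.

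Genes of resting T cells had sites of similar strength. The site 11556 bp from Ccr7, the lymph node homing receptor, had 169.8 and 156 in WT Foxp3, 44.6 and 101 in R397W Foxp3, 69.4 and 119 for WT IgG, and 52.1 and 105 for R397W IgG. Both WT Foxp3 libraries are above the other 6. The site 52901 bp upstream of Lef1, a transcription factor of naive T cells, had 178 and 48.0 in WT Foxp3, 44.6 and 114 in R397W Foxp3, 64.1 and 0 for WT IgG, and 47.5 and 0 for R397W IgG, and overlapped between antibodies and genotypes.

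Near Foxo1, the forkhead factor that keeps T cells quiescent, a site 108749 bp away had 132 and 131 in WT Foxp3, 202 and 36.7 in R397W Foxp3, 78.6 and 44.3 for WT IgG, and 208 and 65.5 for R397W IgG. WT Foxp3 lies above WT IgG, and R397W Foxp3 was below R397W IgG in each number. The site 43251 bp upstream of Id3, an inhibitor of E proteins, had 52.2 and 88.0 in WT Foxp3, 28.9 and 0 in R397W Foxp3, 72.7 and 0 for WT IgG, and 43.0 and 0 for R397W IgG. R397W Foxp3 lies below WT Foxp3 there, and WT Foxp3 overlaps WT IgG. The site 4623 bp upstream of Cd27, a costimulatory TNF receptor gene, had 86.1 and 32.6 in WT Foxp3, 65.6 and 27.1 in R397W Foxp3, 11.9 and 0 for WT IgG, and 56.6 and 0 for R397W IgG, with WT Foxp3 above WT IgG.

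The lineage and partner factors had the most between-gene sites of any list, 21 at 7 of 18 genes, 6 each at Ets1 and Bcl6. For the cytokine genes 5 sites lay nearest to Ifng, Il2 and Il21 of 11 genes, and for T cell receptor signalling 4 sites at 3 of 17 genes. The site 21977 bp from Ifng, the interferon gamma gene that Treg cells keep low, had 102 and 102 in WT Foxp3, 65.6 and 32.2 in R397W Foxp3, 78.6 and 9.45 for WT IgG, and 74.7 and 24.2 for R397W IgG, with both WT Foxp3 libraries above the other 6. No between-gene site was nearest to any of the 7 B cell, 7 myeloid or 7 housekeeping genes, and 1 of 6 CD8 and NK cell genes (Klrb1c) had 1. These genes mark cell types by expression, which CUT&Tag does not measure, so the labelled cell type was not checked here.

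Some between-gene sites lay close to one another, and whether more did so than their placement alone would give was not tested. With neighbours no more than 20 kb apart, 338 of the 976 (34.6%) fell into 145 runs, 4 of them with 5 sites. A cTreg-specific site lay within 20 kb of 103 of the 976, an eTreg-specific site within 20 kb of 104, and both within 20 kb of 15. The 976 sites had 683 different nearest genes, of which 510 had 1 site, and 15 genes had 5 or more (89 sites).

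Of the 4 runs with the most sites, 5 each, 3 lie inside lncRNA genes. A run of 5 sites over 21044 bp of the X chromosome, between Olfr1324 and Stk26, lies inside Firre, whose RNA is held in the nucleus. Summed over its 5 sites the signal was 315 and 165 in WT Foxp3, 234 and 112 in R397W Foxp3, 99.8 and 48.8 for WT IgG, and 192 and 36.9 for R397W IgG. WT Foxp3 lies above WT IgG, and the R397W antibodies overlap. A run of 5 sites on chromosome 2 between Bcl2l11, which encodes the death factor Bim, and Spdye4c lies inside Morrbid, a lncRNA that regulates Bcl2l11. Its sum was 215 and 202 in WT Foxp3, 129 and 43.8 in R397W Foxp3, 70.7 and 22.4 for WT IgG, and 134 and 13.4 for R397W IgG, so WT Foxp3 was above all other libraries.

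The other X chromosome run, inside the lncRNA gene 4933407K13Rik between Rab39b and Pls3, had 144 and 344 in WT Foxp3, 44.6 and 144 in R397W Foxp3, 98.5 and 182 for WT IgG, and 102 and 123 for R397W IgG. There R397W Foxp3 library 2 was level with WT Foxp3 library 1, and WT Foxp3 overlapped WT IgG. The remaining run of 5, between Clec2d and the activation marker gene Cd69, had 257 and 133 in WT Foxp3, 215 and 142 in R397W Foxp3, 128 and 43.3 for WT IgG, and 156 and 82.1 for R397W IgG. WT Foxp3 was above WT IgG, narrowly, and the R397W libraries overlapped.

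Summed over all sites of a gene, WT Foxp3 lay above WT IgG at 6 of the 15 genes with 5 or more sites (Btg1, Cxcr4, Dusp6, Gata3, Olfr1324 and Spdye4c) and R397W Foxp3 above R397W IgG at 2 (Gata3 and Rgs1). Such sums were not taken over other sites, so these counts have no general share beside them. At Btg1, an antiproliferative gene high in quiescent lymphocytes, the 7 sites summed to 833 and 443 in WT Foxp3, 533 and 163 in R397W Foxp3, 291 and 232 for WT IgG, and 385 and 54.1 for R397W IgG. At Cxcr4, the chemokine receptor for bone marrow homing, the 5 sites summed to 694 and 321 in WT Foxp3, 347 and 122 in R397W Foxp3, 274 and 76.6 for WT IgG, and 464 and 150.2 for R397W IgG. In R397W, Foxp3 was below IgG of the same number at Cxcr4 and above it at Btg1.

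At Dusp6, a phosphatase that turns off ERK, the 5 sites summed to 323 and 202 in WT Foxp3, 218 and 0 in R397W Foxp3, 26.4 and 0.498 for WT IgG, and 190.1 and 195 for R397W IgG. WT Foxp3 lies far above WT IgG there, and R397W IgG came close to WT Foxp3 library 2. At Rgs1, a regulator of chemokine receptor signalling, the 6 sites summed to 560 and 66.1 in WT Foxp3, 320 and 323 in R397W Foxp3, 83.9 and 58.7 for WT IgG, and 204 and 49.6 for R397W IgG. At Ets1, a factor that binds with Foxp3 and Runx1, they summed to 713 and 245 in WT Foxp3, 370.2 and 73.4 in R397W Foxp3, 328 and 2.49 for WT IgG, and 369 and 326 for R397W IgG. Bcl6, the follicular helper lineage factor, had 166 and 0 in WT Foxp3 and 262 and 225 in WT IgG, so the sum over its 6 sites lay above IgG in neither WT library. At 3 of the 6 WT Foxp3 library 1 was above WT IgG library 1 (20.6 against 13.2, 24.3 against 0 and 8.49 against 0).

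Among the 126 sites with reads in all 8 libraries, the largest fitted WT Foxp3 over IgG differences were at sites near Ccr9, Pnrc2, Glrp1, Ccn6, Fosl2, Nsmce2, Wwox, Ets1, Suco and Rph3al, with log2 values from 3.35 to 4.03. In 8 of these the value in WT IgG library 2 was below 1, that is 1 or 2 reads, so the size of the difference rests on that library. The site upstream of the gut homing receptor gene Ccr9 had 270.5 and 119 in WT Foxp3, 171 and 206 in R397W Foxp3, 80.6 and 0.498 for WT IgG, and 102 and 73.2 for R397W IgG. Its log2 difference was 4.03 ± 1.33 (SE) in WT (limma, adjusted p = 0.730), and both Foxp3 libraries were above both IgG libraries in each genotype. The site between Ccn6 and Fyn, a Src-family kinase gene, had 101 and 68.9 in WT Foxp3, 31.5 and 36.7 in R397W Foxp3, 3.30 and 7.46 for WT IgG, and 45.3 and 57.9 for R397W IgG.

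The smallest differences were near Lypd3, Trib2, Hes1, Nr1d1 and Zfp281, with log2 values from -1.98 to -1.42 and none called. Near Nr1d1, the clock repressor Rev-erb alpha, the values were 70.3 and 30.7 in WT Foxp3, 110.3 and 168 in R397W Foxp3, 97.8 and 212 for WT IgG, and 29.4 and 146 for R397W IgG. Both WT IgG libraries are above both WT Foxp3 libraries. Near Lypd3 WT IgG was 102 and 525, above WT Foxp3 at 83.7 and 40.5.

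The Foxp3 libraries of both genotypes were compared to see at which sites occupancy differed with the changed protein. Both R397W libraries lay below both WT libraries at 131 of the 976 sites (13.4%), against 12.6% of all 5521 sites, and above them at 61 (6.25%), against 6.43%. These shares are near those of all sites. By limma 0 sites were called in this comparison (0% of all sites), with 1 higher and 3 lower at unadjusted p under 0.05 (0.41%, against 0.326% of all sites). The genotype by antibody difference also gave 0 calls (0% of all sites), with 4 higher and 24 lower at unadjusted p under 0.05 (2.87%, against 1.65% of all sites). By edgeR and DESeq2, 0 sites were called in both comparisons, with 8 and 7 at unadjusted p under 0.05 for R397W against WT and 9 and 30 for the genotype by antibody difference. The first pair are 0.82% and 0.722% of the sites tested, against 0.546% and 0.606% of the common sites, and the second 0.922% and 3.07%, against 0.65% and 1.87%.

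The median log2 difference, R397W minus WT, was -0.47, against -0.39 over all sites, and 624 of 976 sites were lower in R397W. It was 0.40 without WT Foxp3 library 1 and 0.63 without R397W Foxp3 library 2, so the direction rests on those libraries. Over the 126 sites with reads in all 8 libraries it was -0.16, with 70 lower. Of the 338 sites with reads in all 4 Foxp3 libraries, 46 were lower in R397W without overlap, 39 were higher and 253 overlapped. This split was not counted over all sites, so it has no general share beside it. At 78 sites (7.99%, against 7.06% of all sites) both WT Foxp3 libraries lay above both WT IgG and both R397W Foxp3 libraries.

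**Figure D5:**
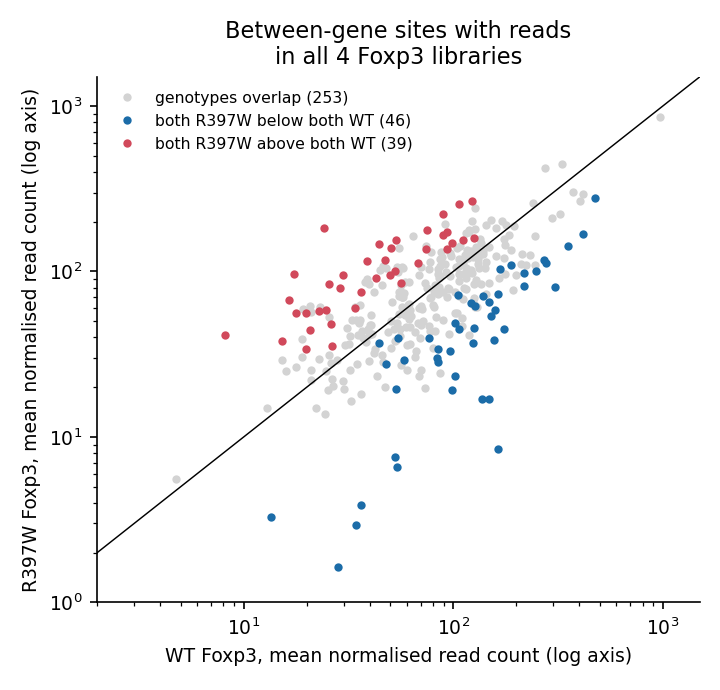
Mean normalised read count in R397W Foxp3 (vertical, log axis) against WT Foxp3 (horizontal, log axis) at the 338 between-gene sites with reads in all 4 Foxp3 libraries, with the line of equality. Sites where both R397W libraries are below both WT libraries (46, blue) and above them (39, red) are of similar number, and 253 overlap (grey). The same split was not counted over all sites.

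The sites lowest in R397W, among those with reads in all 4 Foxp3 libraries and no overlap, were near Gtf2i, Bcl2l11, Letmd1, Ly86 and Pls3. At chr5:134332799-134333199, 15321 bp upstream of Gtf2i, a general transcription factor gene, the values were 147 and 181 in WT Foxp3, 5.25 and 11.6 in R397W Foxp3, 17.2 and 0 for WT IgG, and 0 and 0 for R397W IgG. The log2 difference between genotypes was -4.21 (limma, adjusted p = 1.00, unadjusted p = 0.0127). WT Foxp3 stood alone there, with all other libraries under 20. The Bcl2l11 site, 206197 bp from the gene and inside Morrbid, had 26.7 and 29.8 in WT Foxp3, 2.63 and 0.644 in R397W Foxp3, 0 and 0 for WT IgG, and 22.6 and 0 for R397W IgG.

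Upstream of Letmd1 the values were 78.8 and 218 in WT Foxp3, 28.9 and 5.15 in R397W Foxp3, 74.7 and 0 for WT IgG, and 145 and 348 for R397W IgG. R397W IgG was the highest signal for that genotype there, above R397W Foxp3 in each number. Near Ly86, between that B cell and myeloid gene and Rreb1, the values were 84.9 and 118 in WT Foxp3, 44.6 and 1.93 in R397W Foxp3, 64.8 and 74.6 for WT IgG, and 124 and 28.001 for R397W IgG, with WT Foxp3 above WT IgG.

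The sites highest in R397W were near Gata3, Trim33, Dgat2, Gadd45g and Enc1. The site 2135 bp from Dgat2, a triglyceride synthesis gene, had 19.4 and 15.4 in WT Foxp3, 97.1 and 96.6 in R397W Foxp3, 17.2 and 28.4 for WT IgG, and 9.05 and 0 for R397W IgG. Both R397W Foxp3 libraries are above the other 6, by a log2 difference from WT of 2.42 (limma, adjusted p = 1.00). Near Gadd45g, a stress-response gene, the values were 80.0 and 7.92 in WT Foxp3, 205 and 88.9 in R397W Foxp3, 44.3 and 87.6 for WT IgG, and 0 and 0 for R397W IgG. Near Trim33, a regulator of SMAD signalling, they were 40.02 and 8.38 in WT Foxp3, 105 and 260 in R397W Foxp3, 55.5 and 13.9 for WT IgG, and 79.2 and 0.636 for R397W IgG. R397W Foxp3 was above R397W IgG at both.

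The sites farthest from any coding gene were weak. The 2 farthest, 902156 and 661007 bp from Zfp386, overlap V segments of the immunoglobulin heavy chain locus Igh, which the coding gene set used here does not count as genes. Their values in WT Foxp3 were 3.64 and 0, and 20.6 and 21.4. The next, 518707 bp from A1bg on the side of Myc, had 30.3 and 11.6 in WT Foxp3, 10.5 and 40.6 in R397W Foxp3, 0 and 0 for WT IgG, and 6.79 and 0 for R397W IgG, so WT Foxp3 and R397W Foxp3 each lay above their IgG.

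Likeness between libraries followed the number in part. Over the 976 sites, Spearman's rho was 0.54 between the WT Foxp3 libraries and 0.66 between WT Foxp3 library 1 and R397W Foxp3 library 1. It was 0.61 between WT Foxp3 library 1 and WT IgG library 1, 0.41 between the R397W Foxp3 libraries, 0.39 between the R397W IgG libraries and 0.33 between the WT IgG libraries. Libraries numbered 2 were less alike, with 0.43 between WT and R397W Foxp3, 0.31 between WT Foxp3 and WT IgG, 0.33 between R397W Foxp3 and R397W IgG, and 0.27 between WT and R397W IgG. These are correlations across sites, given as a description, in libraries that share the sites and the scale of the factors.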

How the data were processed

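Foxp3 and IgG CUT&Tag libraries of WT and R397W Treg cells were grouped by their titles, 4 groups of 2. The deposited values are a normalised signal per site, which the file names call spike-in normalised. For the common sites, however, the factors equal median-of-ratios size factors of the 815 sites with reads in all 8 libraries. Levels at these sites are therefore not read here as scaled by a spike-in. The builds mm10 and dm6 and the tools DiffBind 3.12.0 and Bowtie2 2.5.2 come, without roles, from the submitters' processing notes. The sources used here do not give the way in which sites were called. Values in the common-site file were whole multiples of 1 step per library (100% within a tolerance of 0.01), so reads were recovered. The files of the other sites did not pass this check in every column, so the count tests, planned for all sites, used the common sites alone.

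Sites were placed by their centre against RefSeq protein-coding genes. Log2(value + 1) was fitted with limma 3.58.1 (R 4.3.3, trended empirical Bayes) over all 5521 sites, with Benjamini-Hochberg adjustment and a threshold of 0.05. The fold scale understates the change of weak sites. Shares and ratios per library were compared by exact permutation tests. Alternatives were edgeR 4.0.16 and DESeq2 1.42.0 on recovered reads, a pseudocount of 0.5 or 5, leaving out the lowest 25% of sites, equal totals, no trend, a replicate block, other margins and each library left out. The fits and permutation tests were checked on simulated data. Reads are not known to be free of duplicates, so recovered reads may not be independent molecules. Start windows and miRNAs came from RefSeq tables of GRCm38.p6. No genome sequence was used, so motifs were not searched in the other sites.

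Named sites are those called, the 10 with the highest WT Foxp3 mean, the 10 largest and 5 smallest WT Foxp3 over IgG differences with reads in all 8 libraries, the 5 largest R397W differences each way without overlap, up to 12 nearest to core, effector or naive Treg genes, 3 of the 4 runs with the most sites (5 each, a tie in which the run near Cd69 spans the most bases) and the 3 farthest sites. The sites near Ifng, Ctla4 (the one 26026 bp away), Mir21a and Mir132, the run near Cd69 and the summed loci were chosen after their values were seen. The members and lists were chosen with earlier results of these data known.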

Additional observations from a re-analysis of the deposited data

Results flagged for a closer look

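At 12 of the named between-gene sites, Foxp3 minus IgG had opposite signs in the genotypes in both pairings of equal number. Such opposite signs, positive in WT and negative in R397W, occurred at 55 of the 976 sites (5.64%, against 4.31% of all 5521 sites), and the reverse at 12 (1.23%, against 1.47%). The pairing by number is not established, and by limma the genotype by antibody difference did not pass at any of the 12 (adjusted p = 0.999678 for each).

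Foxp3 minus IgG was positive in WT and negative in R397W at 10 of them. Many named sites were chosen by high WT Foxp3 values or differences, which favours this direction. The fitted log2 genotype by antibody difference was -7.98 near Letmd1, -6.91 near Pls3, -6.68 near Ets1 (143675 bp from the gene), -6.27 near Spdye4c inside Morrbid, -5.96 near the granzyme gene Gzmb, -4.38 near Ccn6 and -2.90 near Ly86. It was -2.61 and -1.57 at sites 205111 and 108749 bp from Foxo1 and -0.97 near Ccr7. The reverse pattern was seen near Nr1d1, at 2.64, and near Trim33, at 4.43.

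The IgG libraries also differed between genotypes at some of these sites. At the Ets1 site R397W IgG was 138 and 127 and WT IgG 35.7 and 0.995, while WT Foxp3 was 166 and 54.5 and R397W Foxp3 91.9 and 1.29. At the Gzmb site, 34653 bp from the gene, R397W IgG was 97.3 and 98.6, WT IgG 34.4 and 0, WT Foxp3 95.8 and 12.1 and R397W Foxp3 89.3 and 0. The part of IgG signal in these results was not tested.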

How the results depend on the processing

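The 3 WT Foxp3 over IgG calls fell to 0 with a pseudocount of 5, equal totals, no trend, the replicate block, edgeR or DESeq2, and ranged from 0 to 19 with each library left out (19 without WT Foxp3 library 2, of 189 over all sites, and 14 without WT IgG library 1, of 29). For R397W against WT the count was 0 under every other setting and ranged from 0 to 84 with a library left out (84 without WT Foxp3 library 2, of 643 over all 5521 sites, where the lone WT library is assumed to vary like the other groups). For the genotype by antibody difference it ranged from 0 to 17 (17 without WT Foxp3 library 2, of 182 over all sites, and 1 without WT IgG library 1), and for R397W Foxp3 over IgG it was 0 throughout. The between-gene share difference of 4.03 points was -0.12 with a margin of 0 kb and 3.84 with 5 kb, and ranged from 2.62 to 5.47 with each library left out. For R397W against WT the share difference of -2.06 ranged from -5.35 to 1.23 in the same way, turning to 1.23 without R397W Foxp3 library 2 and 1.04 without WT Foxp3 library 1. The titles give the Foxp3 and IgG libraries of one genotype and number the same cell name, without stating that they share cells. Deviations of libraries of equal number correlated at -0.06 (WT antibodies), 0.13 (R397W antibodies) and 0.15 (Foxp3 genotypes). The mean shift over sites was removed first, so this check could not show a shift shared by whole libraries. It did not establish a pairing. With the replicate block the permutation p was 0.125 for the share, 0.5 for R397W against WT and 0.25 for the mean log2 difference. With each library left out, the WT Foxp3 over IgG log2 difference ranged from -0.0097 (without WT IgG library 2) to 7.75 near Pnrc2. It ranged from -3.87 to 0.0894 near Trib2 and from -2.89 to 0.0618 near Zfp281, the upper ends without WT Foxp3 library 2. The cause of these changes was not tested. Reads in all 8 libraries were present at 126 of the 976 sites, and at the others at least 1 library had none.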
